A study of Homo sapiens with 6 samples.

Results

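The RNAs described here are 9 noncoding RNAs made by RNA polymerase III (Pol III): the 7SL RNAs RN7SL1, RN7SL2 and RN7SL3, the 7SK RNA RN7SK, the RNase MRP RNA RMRP, the RNase P RNA RPPH1, the Y RNAs RNY1 and RNY3, and the vault RNA VTRNA1-1. They were taken by name from the 60612 gene identifiers of the count tables, and were chosen by a list drawn up with earlier values from these libraries known, among them the share of counts that RN7SL1 took in each library. All 9 had an identifier, 5 had at least 1 count, 4 were listed at 0 in every library, and 4 passed the filter on low counts. They were measured in KO52, an acute myeloid leukemia cell line that carries a double mutation of CEBPA. The 6 libraries fall into 3 groups of 2. EV cells carried an empty vector, dnCEBP cells a dominant negative peptide that pairs with C/EBP family proteins, and dnFOS cells a dominant negative peptide that pairs with AP-1 family proteins. The vectors were lentiviral and doxycycline-inducible and marked cells with GFP, GFP-positive cells were sorted, and all 3 groups share the same line and mutation, so each group is a sorted, transduced population of a single line. The labels do not say whether the replicates were separate cultures, so the spread given here may be technical. Libraries were made from total RNA after ribosomal RNA depletion, without selection for poly(A), which these RNAs lack.

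Pol III transcribes short, untranslated RNAs. The 7SL RNA is the scaffold of the signal recognition particle (SRP), which brings ribosomes making secreted and membrane proteins to the endoplasmic reticulum. The 7SK RNA holds the elongation kinase P-TEFb in an inactive particle, RMRP and RPPH1 are the RNA subunits of enzymes that cut ribosomal and transfer RNA precursors, Y RNAs bind the Ro60 protein, and vault RNAs are part of the large cytoplasmic vault particle.

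The likeness of the 7SL genes comes first because it decides what a count can mean. RN7SL1 lies on the plus strand at chr14:49586580-49586878, RN7SL2 on the minus strand at chr14:49862550-49862849 and RN7SL3 on the minus strand at chr14:49853616-49853914 (GRCh38, GENCODE release 29), and each is a single-exon noncoding gene. RN7SL2 was identical to RN7SL1 at 98.33% of 300 aligned positions, and RN7SL3 at 97.66% of 299. The longest stretch without a difference from RN7SL1 was 205 bases in RN7SL2 and 123 bases in RN7SL3. Reads that fall inside such a stretch cannot be assigned by their sequence, so the split of counts among the 7SL genes is uncertain.

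The Y and vault RNAs are much shorter. RNY1 lies on the minus strand at chr7:148987136-148987248, RNY3 on the plus strand at chr7:148983755-148983856, and VTRNA1-1 on the plus strand at chr5:140711275-140711373, each as a single-exon noncoding gene. The transcripts of RNY1 and VTRNA1-1, the members of these families that were tested, are given 5′ to 3′. Capitals mark the last 4 bases, the run of T at which Pol III is known to stop.
RNY1: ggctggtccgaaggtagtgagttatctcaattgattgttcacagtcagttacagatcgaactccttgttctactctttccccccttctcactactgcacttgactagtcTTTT
VTRNA1-1: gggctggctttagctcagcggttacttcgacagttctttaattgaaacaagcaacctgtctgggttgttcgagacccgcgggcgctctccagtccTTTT
RNY1 and RNY3 were identical at 72.57% of 113 aligned positions. The Y RNA family has 812 identifiers, most of them inexact copies, which may share reads with these genes.

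Total counts ranged from 9862994 to 27663179, and the dnFOS libraries were the shallowest, with 14583615 and 9862994 counts. All 8 myeloid blast markers, among them MPO and CD34, reached a level of 1 CPM (counts scaled to library size) in every library. MPO was not level across the groups, at 239 and 194 CPM in EV, 63.5 and 53.0 CPM in dnCEBP, and 153 and 140 CPM in dnFOS. Of 3 epithelial markers, EPCAM alone reached 1 CPM in every library, at 27.7 to 37.6 CPM, and CDH1 was at 0 throughout. Of 3 B cell markers, 0 reached 1 CPM in every library, MS4A1 was at 0 throughout, and their summed level was 0.846 to 1.93 CPM. Of 5 T cell markers, CD3D alone reached 1 CPM in every library. The summed T cell markers stood at 117 to 124 CPM in EV, 148 to 151 CPM in dnCEBP and 91.3 to 106 CPM in dnFOS, nearly all of it CD3D, and their part in the differences below was not tested. In bulk RNA, fewer cells of a type and less RNA per cell cannot be told apart. Levels are CPM after TMM scaling, and fold changes come from edgeR's quasi-likelihood fit over all 15395 genes tested, with Benjamini-Hochberg adjusted p-values and calls at an adjusted p under 0.05. The members were chosen with results of these comparisons known, so their calls and p-values describe the fit and are not independent evidence.

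The level of 7SL RNA was lower with dnFOS and nearly the same with dnCEBP as with the empty vector. RN7SL1 was the second most counted gene in each of the 6 libraries. It had 79553 and 80027 CPM in the EV libraries, 81255 and 83104 CPM in dnCEBP, and 58113 and 41054 CPM in dnFOS. Both dnFOS libraries were below all 4 others, and the deeper of them was nearer to those. As a share of all counts, RN7SL1 took 7.75% and 7.93% in EV, 7.94% in both dnCEBP libraries, and 6.12% and 4.31% in dnFOS. The fitted log2 fold change was -0.69 ± 0.15 (SE, n = 2 libraries in each group) in dnFOS against EV, a level lower by 37.9% (edgeR adjusted p = 0.0249). Against dnCEBP it was -0.73 ± 0.15 (edgeR adjusted p = 0.0199). In dnCEBP against EV it was 0.04 ± 0.15 (edgeR adjusted p = 0.948).

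RN7SL3 showed the larger difference of the pair. Its level was 471 and 376 CPM in EV, 447 and 456 CPM in dnCEBP, and 202 and 143 CPM in dnFOS. The dnFOS values were again below all 4 others, while EV and dnCEBP overlapped. The fitted log2 fold change was -1.29 ± 0.16 in dnFOS against EV (edgeR adjusted p = 0.000699), -1.38 ± 0.16 against dnCEBP (edgeR adjusted p = 0.000385) and 0.09 ± 0.15 in dnCEBP against EV (edgeR adjusted p = 0.884). Set against RN7SL1 within the same library, which needs no scaling, RN7SL3 had 0.592 and 0.470 counts per 100 RN7SL1 counts in EV, 0.550 and 0.548 in dnCEBP, and 0.348 in both dnFOS libraries. The counts assigned to the 2 genes were therefore not lower by the same proportion. Since reads in shared stretches cannot be assigned by sequence, this ratio may not hold for the RNAs themselves.

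**Figure D1:**
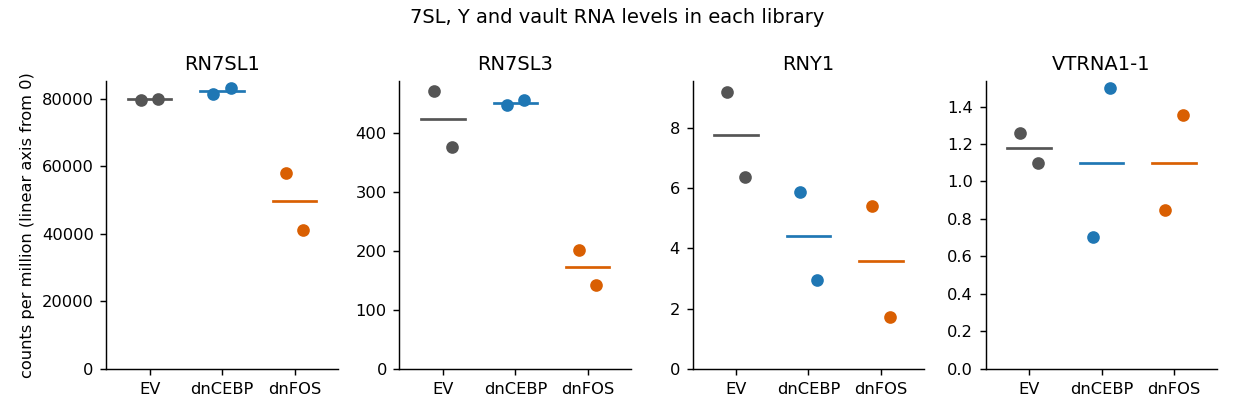
Level of RN7SL1, RN7SL3, RNY1 and VTRNA1-1 in CPM on linear axes that start at 0, for EV, dnCEBP and dnFOS; points are the 2 libraries of a group and lines their mean. The dnFOS libraries have the lowest RN7SL1 (41054 and 58113 CPM) and RN7SL3 (143 and 202 CPM), and VTRNA1-1 overlaps in all groups.

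The comparison with EV can be set beside genes of like base composition. RN7SL1 and RN7SL3 have a GC content of 62.9% and 62.2%. Of 1487 other tested genes with 60 to 65% GC, 76.7% had a fold change below 0 in dnFOS against EV, with a median log2 fold change of -0.23, and in 2593 genes under 40% GC the median was 0.23. In dnCEBP against EV, where RN7SL1 and RN7SL3 were slightly above 0, 75.6% of the same 1487 genes were below 0, with a median of -0.16. In dnFOS against dnCEBP, 57.2% of them were below 0, with a median of -0.065, much nearer to 0 than RN7SL1 and RN7SL3. Neither RN7SL1 nor RN7SL3 was called in this comparison once the trend with GC content and length was removed. After removal of the trend with GC content and length, RN7SL1 in dnFOS against EV stood at -0.32 (edgeR adjusted p = 0.472) and RN7SL3 at -0.94 (edgeR adjusted p = 0.129), so neither was called. The call of RN7SL1 was also lost with library totals alone as the scaling (-0.59, edgeR adjusted p = 0.107) and when either dnCEBP library was left out of the estimate of spread (edgeR adjusted p = 0.144 and 0.142). Without the first dnFOS library RN7SL1 stood at -0.96, and without the second at -0.46, both still called.

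RN7SL2 was listed at 0 in all 6 libraries. RN7SK (chr6:52995621-52995948), RMRP (chr9:35657754-35658017) and RPPH1 (chr14:20343075-20343407) were also listed at 0 in all 6. In GENCODE release 29 the whole exon of RN7SK, of RMRP and of RPPH1 is covered on the same strand by the exon of a second gene identifier, and these partners too had no count, apart from 1 count at the partner of RPPH1 in the first EV library. RN7SL1, with 8878861 counts in all, is covered in the same way in release 29. That second identifier is absent from the count tables, while the partners of RN7SK, RMRP and RPPH1 are listed there. Whether such cover bears on the listed 0s was not tested. RN7SL2 has no such overlap, and it is nearly identical to RN7SL1. Of 404 other small RNA genes wholly covered by another gene's exon, on either strand, 96.3% were at 0 in every library. Of 4699 that were not covered this was 77.2%. The same-strand cases were not counted apart. How reads on overlapping genes and reads with several matches were counted is not given in the sources used here. A 0 is therefore only a listed value for these 4 RNAs, and no difference between the groups can be read from it.

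The Y RNA RNY1 was low and variable. The EV libraries held 219 and 139 counts of it (9.19 and 6.36 CPM), the dnCEBP libraries 159 and 61 (5.88 and 2.94 CPM), and the dnFOS libraries 83 and 18 (5.40 and 1.74 CPM). Both peptide groups were below both EV libraries and overlapped each other. The log2 fold change was -1.04 ± 0.51 in dnFOS against EV (edgeR adjusted p = 0.25), -0.80 ± 0.47 in dnCEBP against EV (edgeR adjusted p = 0.583) and -0.25 ± 0.53 in dnFOS against dnCEBP (edgeR adjusted p = 0.825). None of these was called. In dnFOS against EV the value was -2.16 without the first dnFOS library, where it was called (edgeR adjusted p = 0.000627), and -0.53 without the second. Without the low-count filter it was also called, at -1.05 (edgeR adjusted p = 0.000868). In dnCEBP against EV the value was -1.40 without the first dnCEBP library, -0.41 without the second and -0.51 without the first EV library, and it was called in none of these. In dnFOS against dnCEBP it was called without the first dnFOS library, at -1.36 (edgeR adjusted p = 0.0397). Summed over the Y RNA family, whose copies may share its reads, the log2 fold change was -0.19 ± 0.14 in dnFOS against EV (edgeR adjusted p = 0.425) and -0.29 ± 0.14 in dnCEBP against EV (edgeR adjusted p = 0.393).

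RNY3 had 16 counts in all and was not tested. The EV libraries held 4 and 5 of these, the dnCEBP libraries 3 and 1, and the dnFOS libraries 3 and 0. Over the summed libraries its ratio to EV was 0.592 in dnFOS (exact 95% interval 0.103 to 2.37) and 0.425 in dnCEBP (0.0957 to 1.52), intervals that cover counting error only. A difference was not detectable at this depth. In the shallowest library, 3 counts, the most that a count of 0 allows, correspond to 0.304 CPM.

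The vault RNA VTRNA1-1 was counted 30 and 24 times in the EV libraries, 19 and 31 times in the dnCEBP libraries, and 13 and 14 times in the dnFOS libraries. Its mean level was 1.18 ± 0.11 CPM in EV, 1.10 ± 0.56 CPM in dnCEBP and 1.10 ± 0.36 CPM in dnFOS (SD, n = 2), and the 3 groups overlapped. The log2 fold change was -0.14 ± 0.52 in dnFOS against EV and -0.13 ± 0.48 in dnCEBP against EV (edgeR adjusted p = 0.9 and 0.953). Both standard errors were larger than the difference itself, so the depth could not show a change of this size.

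In dnFOS against EV, 2 of the 9 members (of 4 tested) were called lower, where 7.76% of all genes tested were called lower, and 0 were called higher, where 7.24% of all genes were. In dnFOS against dnCEBP, 2 of 9 were called lower, beside 7.84% of all genes, and in dnCEBP against EV, 0 of 9 were called in either direction, beside 1.07% of all genes, with 0 also at an unadjusted p under 0.05 and 0 with DESeq2 and with limma-voom. The median log2 fold change of the 4 tested members was -0.86 in dnFOS against EV, -0.04 in dnCEBP against EV and -0.49 in dnFOS against dnCEBP, and that of all genes tested 0.00, 0.00 and 0.02. The dnFOS comparisons share their dnFOS libraries, and both comparisons with EV share the EV libraries.

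**Figure D2:**
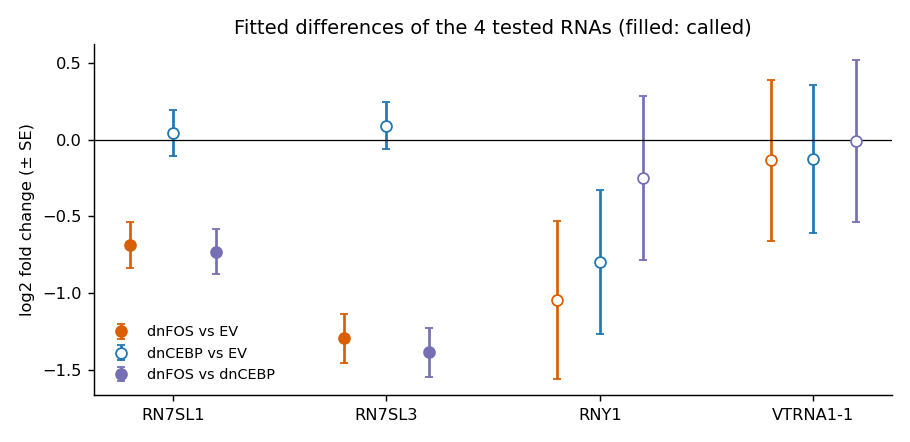
Log2 fold change with its standard error for the 4 tested RNAs in the 3 comparisons; filled points were called in the fit over all genes. RN7SL1 and RN7SL3 are called lower in both comparisons of dnFOS, and RNY1 and VTRNA1-1 in none.

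Levels can be ordered per length. In EV, the mean CPM per kilobase was 266857 for RN7SL1, 1416 for RN7SL3, 68.8 for RNY1, 11.9 for VTRNA1-1 and 1.94 for RNY3, and no neighbours in this order overlapped. In dnFOS, RNY1 and VTRNA1-1, at 31.6 and 11.1 CPM per kilobase, differed by less than the spread of RNY1. The order of RN7SL1 and RN7SL3 rests on how shared reads were assigned. Among the genes whose log2 CPM followed RN7SL1 most closely over the 6 libraries were RNF7, a subunit of cullin ubiquitin ligases, and ILK, an integrin-linked kinase (Pearson's r 0.994 for each). Their r is a description over 6 libraries that share the 3 groups, and 597 of 8323 genes compared had an r above 0.9.

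The human genome holds many inexact copies of these RNAs. RN7SL1 itself held 98.2 to 99.4% of all counts of the 7SL family, which has 849 identifiers. Summed over the family, 7SL stood at -0.69 in dnFOS against EV (edgeR adjusted p = 0.00106) and 0.03 in dnCEBP against EV (edgeR adjusted p = 0.946). This sum is nearly all RN7SL1, so it is not a separate result. It was fitted with TMM scaling only, and not with the GC and length trend removed. Of 16 tested 7SL copies other than the members, 4 were called lower and 0 higher in dnFOS against EV, beside 7.76% and 7.24% of all genes. Their median log2 fold change there was -0.61. In dnCEBP against EV 0 of the 16 were called (2 at an unadjusted p under 0.05, 0 with DESeq2 and limma-voom), beside 1.07% of all genes, and their median was -0.32. The copies named next were picked after their values were seen. RN7SL4P had 154 and 149 CPM in EV, 118 and 86.7 CPM in dnFOS and 133 and 115 CPM in dnCEBP, and its log2 fold change of -0.56 ± 0.11 in dnFOS against EV (edgeR adjusted p = 0.00184) was -0.27 after removal of the GC and length trend (edgeR adjusted p = 0.0311). RN7SL471P, which lies in no other tested gene, stood at -0.93 ± 0.20 (edgeR adjusted p = 0.00178), and at -0.46 with that trend removed, where the call was lost (edgeR adjusted p = 0.121). RN7SL674P, which lies within GREB1, stood at -1.45 ± 0.40 (edgeR adjusted p = 0.0129), a call lost without the second dnFOS or the second EV library and with limma-voom (largest adjusted p = 0.154). RN7SL128P was counted 129 and 128 times in EV, but 4 and 2 times in dnFOS, and 128 and 108 times in dnCEBP, and E2F3, in whose span it lies on the opposite strand, stood at 0.27 in dnFOS against EV (edgeR adjusted p = 0.127).

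One 7SL copy separated libraries of the same group. RN7SL5P, a pseudogene on chromosome 9, was counted 17142 and 13236 times in the EV libraries, 439 and 4994 times in the dnFOS libraries, and 10280 and 815 times in the dnCEBP libraries. Per 100 counts of RN7SL1 in the same library this was 0.904 and 0.757 in EV, 0.0492 and 1.18 in dnFOS, and 0.468 and 0.0473 in dnCEBP. Its replicates differed by more than those of RN7SL1, and its log2 fold change of -1.38 ± 1.86 in dnFOS against EV was not called (edgeR adjusted p = 0.715). RN7SL5P holds a stretch of 209 bases identical to RN7SL1.

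Of the 9 tested copies of RN7SK, 1 was called lower in dnFOS against EV, beside 7.76% of all genes. This was RN7SKP203, at 8.39 and 8.33 CPM in EV, 7.29 and 5.45 CPM in dnCEBP and 5.08 and 5.03 CPM in dnFOS. Its log2 fold change in dnFOS against EV was -0.73 ± 0.22 (edgeR adjusted p = 0.0214). The call was lost in 6 of 17 alternatives, among them those without any 1 of the dnFOS or EV libraries. With the GC and length trend removed RN7SKP203 stood at -0.45 (edgeR adjusted p = 0.146). The median over the 9 was -0.40 in dnFOS against EV and -0.29 in dnCEBP against EV. Of the 5 tested copies of the Y RNAs, 0 were called in dnFOS against EV (1 at an unadjusted p under 0.05, 0 with DESeq2 and limma-voom).

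Of other short RNAs, the snoRNAs, scaRNAs and Pol II snRNAs had medians below 0 against EV in both peptide groups, while 3 other Pol III transcripts had a median of 0.24 in dnFOS against EV and -0.02 in dnCEBP against EV. Of 78 tested snoRNAs, which guide modification of ribosomal RNA, 5 were called lower and 0 higher in dnFOS against EV. Their median log2 fold change there was -0.21, and of all genes tested 7.76% were called lower and 7.24% higher. In dnCEBP against EV their median was -0.28, and 1 was called lower and 0 higher, beside 1.07% of all genes called in either direction. Of 10 scaRNAs, the related guides of Cajal bodies, 2 were called lower and 1 higher in dnFOS against EV, beside the same 7.76% and 7.24%. Of 9 spliceosomal snRNAs made by Pol II, 0 were called by edgeR or DESeq2 in either comparison with EV (1 in each at an unadjusted p under 0.05), while limma-voom called 2 in dnFOS and 1 in dnCEBP. All 9 had a fold change below 0 in dnCEBP against EV. Among 24 other Pol III transcripts, 14 were matched to an identifier and 3 were tested, and 0 of these were called in any comparison by edgeR, DESeq2 or limma-voom, or had an unadjusted p under 0.05. RNU6-8, a U6 spliceosomal RNA, stood at 0.63 ± 0.62 in dnFOS against EV, RNU6ATAC, the U6 RNA of the minor spliceosome, at -1.18 ± 0.68, and BCYRN1, the BC200 RNA, at 0.24 ± 0.32.

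**Figure D3:**
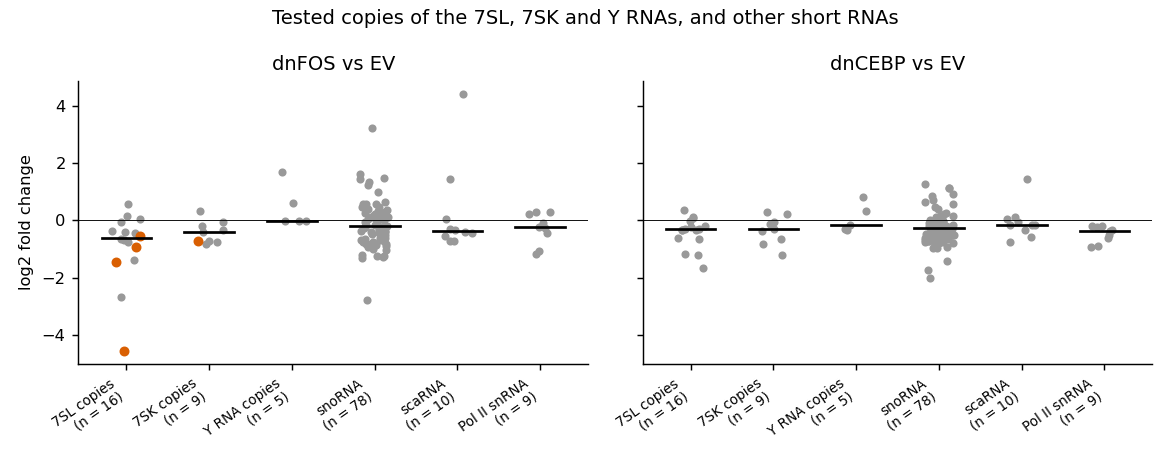
Log2 fold change of each tested copy of the 7SL, 7SK and Y RNAs and of each tested snoRNA, scaRNA and Pol II snRNA, in dnFOS (left) and dnCEBP (right) against EV; lines are medians and orange points are called copies (calls are not marked for the last 3 classes). The 7SL copies have a median of -0.61 with dnFOS and -0.32 with dnCEBP.

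The Pol III machinery and the protein partners held both genes called higher and genes called lower with dnFOS. Over the 68 genes of these lists edgeR called 4 higher and 3 lower in dnFOS against EV, beside 7.24% and 7.76% of all genes, and 0 in dnCEBP against EV, where 8 had an unadjusted p under 0.05 and DESeq2 and limma-voom called 0. Of the 18 core and shared Pol III subunits, 1 was called higher and 1 lower in dnFOS against EV, with a median log2 fold change of -0.05. POLR3G, the form of the RPC7 subunit found in stem and cancer cells, rose from 9.10 and 8.88 CPM in EV to 14.2 and 16.6 CPM in dnFOS, and stood at 9.88 and 11.2 CPM in dnCEBP. Its log2 fold change was 0.77 ± 0.17 in dnFOS against EV (edgeR adjusted p = 0.00241) and 0.39 after removal of the GC and length trend, where the call was lost (edgeR adjusted p = 0.0892). Its paralog POLR3GL stood at 0.03 ± 0.13, and POLR3A, the largest catalytic subunit, at 0.21 ± 0.13 (edgeR adjusted p = 0.912 and 0.311). POLR2E, a subunit shared by the nuclear polymerases, was called lower at -0.46 ± 0.13 (edgeR adjusted p = 0.018), but not in 4 of 17 alternatives. Among these were the fits without the second dnFOS or the first EV library. With the GC and length trend removed POLR2E was also not called, at -0.26 (edgeR adjusted p = 0.113).

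Of 19 genes for initiation factors and MAF1, 2 were called lower in dnFOS against EV, beside 7.76% of all genes. MAF1, the repressor of Pol III, stood at 52.5 ± 3.45 CPM in EV, 48.6 ± 5.46 CPM in dnCEBP and 38.7 ± 0.157 CPM in dnFOS (SD, n = 2), with both dnFOS libraries below all others. Its log2 fold change in dnFOS against EV was -0.44 ± 0.11 (edgeR adjusted p = 0.00608), but it was not called at -0.17 with the GC and length trend removed (edgeR adjusted p = 0.243), nor without the first EV library. ZNF143, a zinc finger activator of snRNA-type promoters, stood at -0.40 ± 0.13 (edgeR adjusted p = 0.039). It lost the call in 6 of 17 alternatives, among them those without the first dnFOS library or either EV library. With the GC and length trend removed ZNF143 was still called, at -0.50 (edgeR adjusted p = 0.00397). BRF1, a subunit of TFIIIB, stood at -0.36 ± 0.16 (edgeR adjusted p = 0.123).

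SRP9 and RO60 rose with dnFOS. SRP9, which binds the Alu end of 7SL RNA together with SRP14, had 108 and 112 CPM in EV, 118 and 132 CPM in dnCEBP and 167 and 207 CPM in dnFOS. Both dnFOS values were above all others, and its log2 fold change was 0.76 ± 0.09 in dnFOS against EV (edgeR adjusted p = 1.94e-06) and 0.18 ± 0.09 in dnCEBP against EV (edgeR adjusted p = 0.459). Of 8 SRP proteins and receptor subunits it alone was called in dnFOS against EV, where 7.24% of all genes were called higher. SRP54, the signal sequence binding subunit, stood at 0.13 ± 0.10. RO60, which encodes the Ro60 protein that binds Y RNAs, had 97.8 and 104 CPM in EV, 112 and 127 CPM in dnCEBP and 149 and 180 CPM in dnFOS. Its log2 fold change was 0.70 ± 0.09 in dnFOS against EV (edgeR adjusted p = 7.14e-06). SSB, the La protein that binds the ends of Pol III transcripts, stood at 0.07 ± 0.09. The calls of SRP9 and RO60 held in all 17 alternatives, with SRP9 at 0.54 and RO60 at 0.28 after removal of the GC and length trend. Their GC content is 37.1% and 34.1%.

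Of 7 genes of the 7SK particle and P-TEFb, 1 was called higher in dnFOS against EV, beside 7.24% of all genes. This was CCNT2, a cyclin of P-TEFb, at 0.31 ± 0.10 (edgeR adjusted p = 0.044). The call was lost in 8 of 17 alternatives, among them those without either dnFOS library or the first EV library. With the GC and length trend removed CCNT2 stood at 0.03 (edgeR adjusted p = 0.879). LARP7, which binds the end of 7SK, stood at 0.02 ± 0.10, the capping enzyme MEPCE at -0.14 ± 0.15 and HEXIM1, the P-TEFb inhibitor, at 0.18 ± 0.14. Of 11 RNase P and MRP proteins 0 were called in dnFOS against EV by edgeR, DESeq2 or limma-voom, and 0 had an unadjusted p under 0.05. POP1, their shared large subunit, stood at 0.16 ± 0.13. Of the 3 vault proteins, too, 0 were called in dnFOS against EV by edgeR, DESeq2 or limma-voom, and 0 had an unadjusted p under 0.05. MVP, the main shell protein, was at 5.62 and 4.90 CPM in EV, 3.65 and 4.16 CPM in dnFOS and 6.22 and 6.71 CPM in dnCEBP, and its fold change passed in dnFOS against dnCEBP (-0.74 ± 0.23, edgeR adjusted p = 0.0312) but not against EV (-0.44 ± 0.24, edgeR adjusted p = 0.228). The call against dnCEBP was lost with DESeq2, with limma-voom, with library totals alone, and without any 1 of the dnFOS or dnCEBP libraries. TEP1, a telomerase-associated vault protein, stood at -0.07 ± 0.11 against EV.

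**Figure D4:**
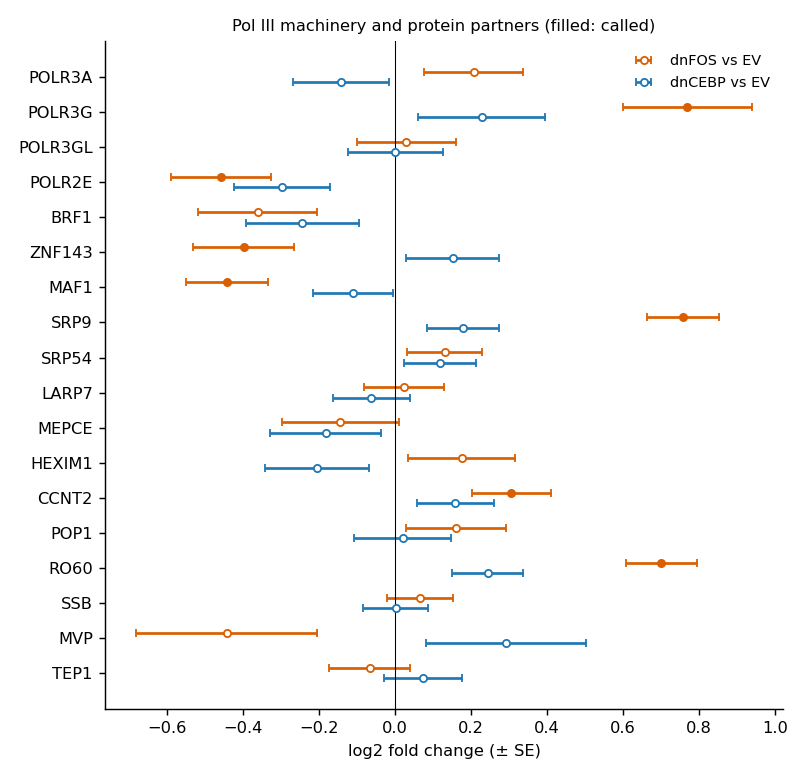
Log2 fold change with its standard error for the named Pol III genes and protein partners, in dnFOS and dnCEBP against EV; filled points were called. SRP9 (0.76), POLR3G (0.77) and RO60 (0.70) have the highest values with dnFOS, and none is called with dnCEBP.

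**Figure D5:**
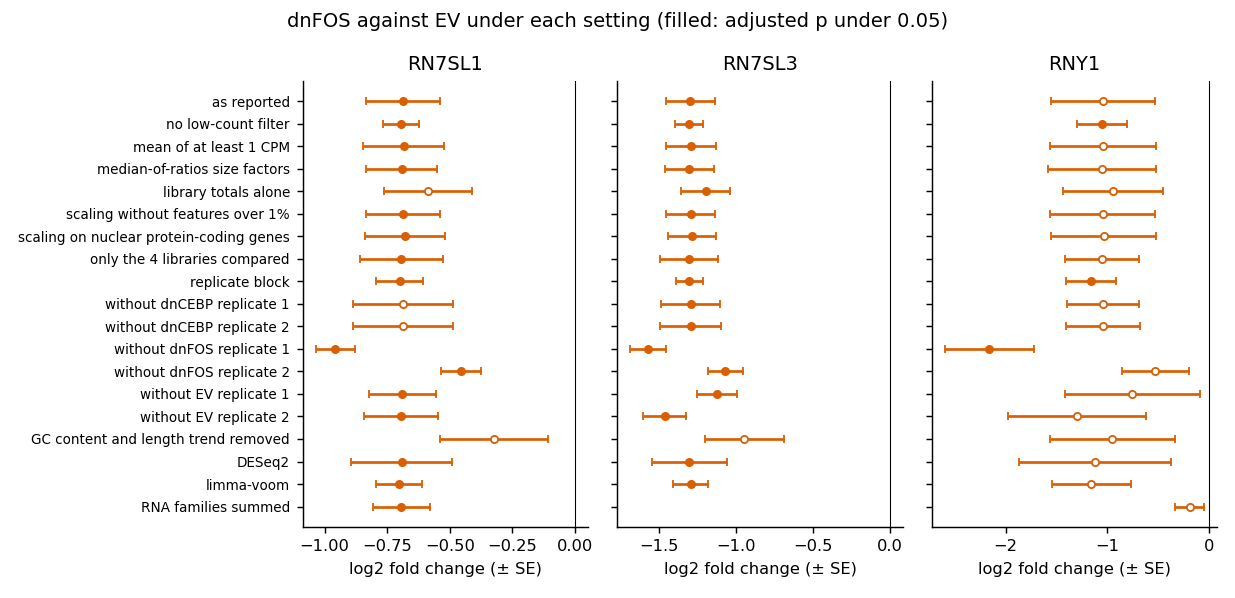
Log2 fold change in dnFOS against EV with its standard error for RN7SL1, RN7SL3 and RNY1 under the reported fit and each alternative; filled points have an adjusted p under 0.05. RN7SL1 and RN7SL3 stay below 0 throughout, and the removal of the GC and length trend brings RN7SL1 to -0.32.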

How the data were processed

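RNA from 6 KO52 libraries (2 each of EV, dnCEBP and dnFOS) was sequenced as paired-end reads. Per the labels, the submitters' processing notes name Trimmomatic, HISAT2 and featureCounts of Subread with hg38, and versions are not given in the sources used here. The authors deposited raw counts per Ensembl gene for each library, and these deposited counts were used as they stood. Of 60612 identifiers, 60588 were matched to symbols, 58394 of them in GENCODE release 29, which supplied coordinates, lengths and sequences and is not the release the authors counted with. Groups were taken from the labels.

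Genes were filtered with filterByExpr (minimum count 10), scaled by TMM and fitted with edgeR 4.0.16 (R 4.3.3) by a robust quasi-likelihood fit with a mean per group over all 6 libraries. P-values were two-sided and adjusted by Benjamini-Hochberg over 15395 genes. SE is the absolute log2 fold change over the square root of F. Alternatives were DESeq2 1.42.0, limma-voom (limma 3.58.1), other filters and scalings, leaving out each library, a replicate block, removal of a trend with GC content and length (mgcv 1.9.3), and counts summed by RNA family. Bands of GC content were set after the data were seen. Counting intervals are exact 95% intervals, and PCR copies without molecular identifiers are not independent.

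The members, the gene lists and the rule for named genes were chosen with earlier results of these data known. Named partner genes were the called genes of each list in dnFOS or dnCEBP against EV, at most 4 by smallest adjusted p, plus a fixed set of 14 genes, and the 3 genes most like RN7SL1 among genes with a mean of at least 10 CPM. RN7SK had no counts, so no genes like it could be sought. Some genes and sequences that these rules would name are not reported here.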

Additional observations from a re-analysis of the deposited data

How the results depend on the processing

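In dnFOS against EV, 2 members were called in the reported fit and 1 with library totals alone, 1 (the 7SL family) with RNA families summed, and 0 after removal of the GC and length trend; the counts were the same, 1, 1 and 0, in dnFOS against dnCEBP. Leaving out 1 library gave 1 to 3 in both comparisons, with 1 when either dnCEBP library was left out, and 0 throughout in dnCEBP against EV. RN7SL1 and RN7SL3 kept their direction in both dnFOS comparisons under every alternative. RN7SL1 in dnFOS against EV ranged from -0.96 to -0.32, and its adjusted p from 2.63e-16 to 0.472, and RN7SL3 from -1.57 to -0.94 with an adjusted p from 1.42e-40 to 0.129. The cause of these changes was not tested.

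Values near 0 changed sign. Leaving out 1 library moved VTRNA1-1 between -0.48 and 0.20 in dnFOS against EV, between -0.74 and 0.34 in dnCEBP against EV, and between -0.48 and 0.61 in dnFOS against dnCEBP (0.61 without the second dnCEBP library and 0.32 without the first dnFOS library). With the GC and length trend removed it was 0.099, 0.046 and 0.053 in these comparisons, and in the last it was also 0.12 with library totals alone, 0.029 with the replicate block, 0.095 with limma-voom and 0.054 with families summed. Leaving out 1 library moved RN7SL3 in dnCEBP against EV between -0.069 and 0.26, and RNY1 in dnFOS against dnCEBP between -1.36 and 0.36 (0.27 without the second dnFOS library), where families summed gave 0.10.

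Deviations of same-numbered libraries correlated at 0.017, 0.028 and 0.088 over all genes tested. Counting error can hide a pairing in such values, so a pairing by replicate number was not excluded. The replicate block called 3172 genes in dnFOS against EV and 488 in dnCEBP against EV, beside 2309 and 165 in the reported fit. With the replicate block 3, 1 and 2 members were called in dnFOS against EV, dnCEBP against EV and dnFOS against dnCEBP, where RNY1 was added in the first (-1.16, edgeR adjusted p = 0.000144) and second (-0.86, edgeR adjusted p = 0.00989). With library totals alone the median of all genes was 0.10 in dnFOS against EV and 0.14 against dnCEBP, compared with 0.00 and 0.02 in the reported fit. In dnFOS against EV this gave 1905 genes higher and 676 lower, and removal of the GC and length trend 693 and 1273, beside 1115 and 1194 in the reported fit; against dnCEBP the same settings gave 2101 and 714, and 980 and 1723, beside 1052 and 1207. With 2 libraries a group and few counts of the Y and vault RNAs, only large differences in these could be seen.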
